A study of Mus musculus with 8 samples.

Results

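The DNA replication and S phase genes described here are 43 genes whose products license replication origins, build and run the replication fork, supply deoxynucleotides or copy chromatin, and all 43 had a row among the 19457 genes of the deposited table. The rule is a list of symbols and uses no measured value, though the list was chosen with earlier results of these data known. The genes were sorted by role into 8 sub-steps. RNA was sequenced from primary cultured keratinocytes of mouse skin, the main cells of the epidermis, taken while the cultures were still below confluence. There were 4 libraries from HdR mice, which carry HOIL1 ΔRING1, and 4 from WT mice. HOIL-1L, encoded by Rbck1, is a subunit of the complex that assembles linear ubiquitin chains, and the name of the allele refers to loss of its first RING domain. The labels give no treatment, and age, sex, strain background and the sharing of animals or cultures between libraries are not given in the sources used here, so each p-value measures the spread between these libraries and that spread may be technical.

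Eukaryotic cells copy their DNA once per cycle. In G1 the origin recognition complex, Cdc6 and Cdt1 load the ring-shaped MCM helicase, made of Mcm2 to Mcm7, onto DNA, which is called licensing. At the start of S phase Cdc45 and the GINS complex join the ring and turn it into an active helicase, which is called firing, and polymerases, a sliding clamp and its loader then follow the fork. Many of these genes are known targets of E2F transcription factors. In epidermis, proliferating keratinocytes sit in the basal layer and leave the cell cycle as they differentiate.

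Values are aligned bases of a gene per megabase of the library's scaled total, written aligned bases per Mb, so they compare 1 gene between libraries. A gene was called when limma's two-sided test gave an adjusted p under 0.05 over all 11870 genes tested, those with a mean level of at least 1. Fold changes are HdR over WT, and log2 fold changes are of level plus 1, each with its SE.

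Of the 43 replication genes, 36 were called higher in HdR (83.7%), none was called lower, and 7 were not called. Among all genes tested, 2527 (21.3%) were called higher and 2833 (23.9%) lower, so 47.1% of all calls were higher, and 57.7% with upper-quartile scaling. All 43 members passed the filter on low values. The same 36 genes had every HdR library above every WT library, which held for 19.9% of all genes tested. The rises were small: the called members lay between 1.11-fold and 1.52-fold, with a median log2 fold change of 0.34 over all 43 and -0.01 over all genes tested. When the difference had to exceed 1.2-fold (treat, in limma), 9 members were higher (20.9%), as were 344 of all genes (2.9%). More cells in S phase and more RNA of these genes per cell cannot be told apart in such bulk libraries.

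**Figure D1:**
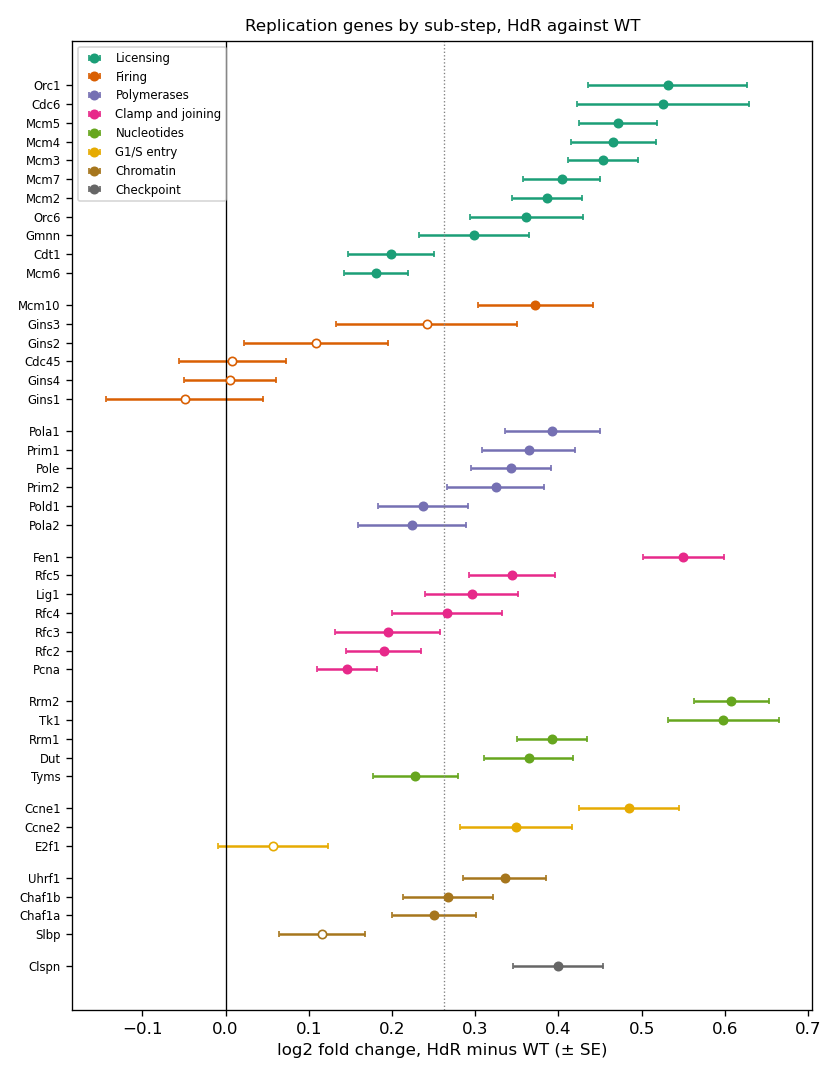
The log2 fold change of each of the 43 genes, HdR minus WT, is plotted with its SE by sub-step, filled where called and open where not, with a dotted line at a fold of 1.2. Every licensing, polymerase, clamp and nucleotide gene lies to the right of 0, and 5 of the 6 firing genes are open symbols.

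The HdR libraries held 2.31 to 4.31 Gb of aligned bases and the WT libraries 4.78 to 5.43 Gb, so every HdR library was shallower and depth and genotype cannot be told apart. With each library thinned to the smallest, 35 members were called higher and none lower. Without HdR 4 and WT 4, 36 were called higher. Rbck1, the targeted gene, was at 43.7 ± 1.82 aligned bases per Mb in HdR and 87.5 ± 3.42 in WT (SD, n = 4 each), without overlap (log2 fold change -0.99 ± 0.046, limma adjusted p = 1.01e-10). The value sums the whole gene and does not show which exons were lost. Basal keratinocyte markers were abundant, with a summed level of 46328 to 47734 in HdR and 42749 to 45647 in WT. Of these 10 markers, 6 were called higher, 0 lower and 4 not called, Krt14 among the last. Of 9 suprabasal differentiation markers with a row, 8 were called lower, and the list summed to 1665 to 1908 in HdR and 2411 to 3210 in WT. Of 10 melanocyte markers 7 were tested and 6 called lower, with sums of 27.7 to 29.7 in HdR and 53.0 to 61.1 in WT. Fibroblast, leukocyte and endothelial markers summed to at most 9.03 in any library, and Cd207 and Lyz2 were at 0 in all 8. The part of these cell types in the replication values was not tested.

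The following promoters show, for the member with the smallest p in each sub-step that had an entry, the 100 bases before and the 50 after the RefSeq transcription start in GRCm38.p6, read 5′ to 3′ on the gene's strand. Cdc45 was added after its values were seen, as a gene that was not called. Capitals mark an E2F motif, TTTCCCGC, TTTCGCGC, TTTGCCGC or TTTGGCGC on either strand.
Mcm3, chr1:20820263-20820412 (minus strand): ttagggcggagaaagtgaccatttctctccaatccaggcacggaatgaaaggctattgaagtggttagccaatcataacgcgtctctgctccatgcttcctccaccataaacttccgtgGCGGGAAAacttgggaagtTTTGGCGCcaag
Mcm10, chr2:5012742-5012891 (minus strand): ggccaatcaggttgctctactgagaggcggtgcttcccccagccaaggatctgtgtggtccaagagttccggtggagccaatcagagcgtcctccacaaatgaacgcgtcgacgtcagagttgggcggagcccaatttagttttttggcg
Pola1, chrX:93632106-93632255 (minus strand): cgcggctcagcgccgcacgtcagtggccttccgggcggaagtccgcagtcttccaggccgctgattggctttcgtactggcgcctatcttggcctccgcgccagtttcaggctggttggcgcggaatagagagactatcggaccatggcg
Fen1, chr19:10204344-10204493 (minus strand): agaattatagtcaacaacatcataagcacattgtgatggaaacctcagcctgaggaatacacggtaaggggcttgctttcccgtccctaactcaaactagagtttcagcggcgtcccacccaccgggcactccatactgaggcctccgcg
Rrm2, chr12:24708154-24708303 (plus strand): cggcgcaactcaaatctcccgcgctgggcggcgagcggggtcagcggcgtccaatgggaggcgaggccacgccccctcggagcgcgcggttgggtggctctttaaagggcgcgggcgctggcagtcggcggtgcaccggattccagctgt
Ccne1, chr7:38107441-38107590 (minus strand): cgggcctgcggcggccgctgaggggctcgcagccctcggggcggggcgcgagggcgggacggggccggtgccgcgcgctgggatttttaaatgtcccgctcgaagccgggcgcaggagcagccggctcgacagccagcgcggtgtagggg
Uhrf1, chr17:56303237-56303386 (plus strand): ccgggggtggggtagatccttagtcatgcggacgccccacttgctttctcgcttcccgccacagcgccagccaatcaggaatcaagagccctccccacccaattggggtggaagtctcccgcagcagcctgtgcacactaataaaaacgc
Clspn, chr4:126556880-126557029 (plus strand): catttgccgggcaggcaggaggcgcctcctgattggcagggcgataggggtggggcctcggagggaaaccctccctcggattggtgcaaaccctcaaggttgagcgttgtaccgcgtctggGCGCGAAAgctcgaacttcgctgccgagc
Cdc45, chr16:18811923-18812072 (minus strand): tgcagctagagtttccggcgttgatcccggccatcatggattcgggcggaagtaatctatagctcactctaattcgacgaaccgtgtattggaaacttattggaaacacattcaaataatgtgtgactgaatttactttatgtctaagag

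An E2F motif stood between 250 bases before and 50 after a start in 14 of the 34 members with a promoter entry (41.2%), and in 461 of 9344 tested genes (4.93%) and 704 of all 27025 genes with an entry (2.6%). Mcm3 holds 2 such motifs, both just after its start, and Clspn holds 1. In Pola1 the motif lies at -138, upstream of the stretch shown. By sub-step the motif was in 7 of 9 licensing genes with an entry (Orc1, Cdc6, Cdt1, Mcm3, Mcm5, Mcm6 and Mcm7), 2 of 4 polymerase genes, 2 of 6 clamp genes, and in 1 each of the firing, chromatin and checkpoint genes (Gins3, Uhrf1 at another start, and Clspn). None of the 5 nucleotide genes or the 2 entry genes with an entry held these letters. The CCAAT box was in 20 of 34 members (58.8%) and in 42.8% of tested and 41.1% of all genes. The letters TTTGAA, the core of the CHR element, were in 4 members (11.8%), 14.2% of tested and 20.2% of all genes. The 14 members with an E2F motif had a median log2 fold change of 0.36 with 13 called higher, and the 20 without one 0.35 with 17 called higher. A match describes these letters and is not a shown binding site. Gins2, Gins4, Pole, Ccne2, Gmnn, Gins1, Rfc2, Prim2 and Mcm4 had no entry.

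All 11 origin licensing genes among the members were called higher, with a median log2 fold change of 0.40. Outside the members, the other origin recognition complex genes Orc2, Orc3, Orc4 and Orc5 were not called. Their log2 differences were 0.030, 0.016, -0.066 and 0.029, and the groups overlapped. Orc1, the ATPase subunit of the origin recognition complex (GRCm38 chromosome 4, 108579423 to 108614833, plus strand), had 17.2, 18.7, 21.6 and 15.2 aligned bases per Mb in the HdR libraries, against 13.5, 11.8, 10.8 and 12.7 in the WT libraries. Its log2 fold change was 0.53 ± 0.095 (limma adjusted p = 0.00026), and the highest level was in HdR 3. Orc6, another subunit of that complex, was at 31.9 ± 1.91 in HdR and 24.7 ± 2.15 in WT (SD, n = 4 each), which is a log2 fold change of 0.36 ± 0.068. Cdc6, the loader ATPase (GRCm38 chromosome 11, 98907801 to 98923940, plus strand), had 20.9, 18.98, 20.7 and 17.95 aligned bases per Mb in the HdR libraries, against 10.7, 12.2, 15.5 and 15.5 in the WT libraries, and the WT libraries fell into a lower and a higher pair. Its log2 fold change was 0.53 ± 0.103 (limma adjusted p = 0.00078).

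Of the 6 ring subunits, 5 had log2 fold changes between 0.39 and 0.47, and Mcm6 had 0.18. Mcm3 (GRCm38 chromosome 1, 20802968 to 20820312, minus strand), which had the smallest p of the licensing genes, had 147, 133, 142 and 137 aligned bases per Mb in the HdR libraries, against 101, 98.5, 100.3 and 108 in the WT libraries. The groups were far apart, by a log2 fold change of 0.45 ± 0.042 (limma adjusted p = 2.52e-07). Mcm5, Mcm4, Mcm7 and Mcm2 differed by log2 fold changes of 0.47 ± 0.046, 0.47 ± 0.051, 0.40 ± 0.046 and 0.39 ± 0.042. Mcm6 (GRCm38 chromosome 1, 128331590 to 128359664, minus strand) had 149.7, 141, 148 and 146 aligned bases per Mb in the HdR libraries, against 130.0, 124, 126 and 135 in the WT libraries. That was 1.13-fold, a log2 fold change of 0.18 ± 0.039 with a 95% interval of 0.10 to 0.26, below the intervals of the other 5 subunits, the nearest of which began at 0.30. The difference between Mcm6 and the other subunits was not itself tested. Per kilobase of annotated exon, Mcm5 was the highest subunit in HdR at 42.4 ± 1.67 and 30.5 ± 2.02 in WT aligned bases per Mb (SD, n = 4 each). Mcm4 and Mcm3 followed in HdR at 38.9 ± 2.26 and 37.3 ± 1.58, within each other's spread, as were Mcm6 at 31.3 ± 0.804 and Mcm7 at 30.7 ± 1.83. Mcm2 was lowest, at 18.8 ± 0.734 in HdR and 14.3 ± 0.609 in WT. In WT, Mcm4 at 28.1 ± 1.88, Mcm6 at 27.6 ± 1.08 and Mcm3 at 27.1 ± 1.06 lay within each other's spread, above Mcm7 at 23.1 ± 0.930, an order that assumes the annotated exon lengths fit these cells.

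The second MCM loader and its inhibitor rose modestly. Cdt1 (GRCm38 chromosome 8, 122568015 to 122573554, plus strand) had 57.7, 53.2, 55.5 and 52.9 aligned bases per Mb in the HdR libraries, against 51.7, 44.8, 46.5 and 47.8 in the WT libraries, a log2 fold change of 0.20 ± 0.052 (limma adjusted p = 0.00481). Its inhibitor geminin, encoded by Gmnn (GRCm38 chromosome 13, 24751845 to 24761923, minus strand), had 40.2, 40.4, 37.3 and 41.9 aligned bases per Mb in the HdR libraries, against 31.5, 28.2, 35.3 and 34.4 in the WT libraries, a log2 fold change of 0.30 ± 0.066 (limma adjusted p = 0.00146). The groups did not overlap in either gene, though the lowest HdR and highest WT values were close in both.

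**Figure D2:**
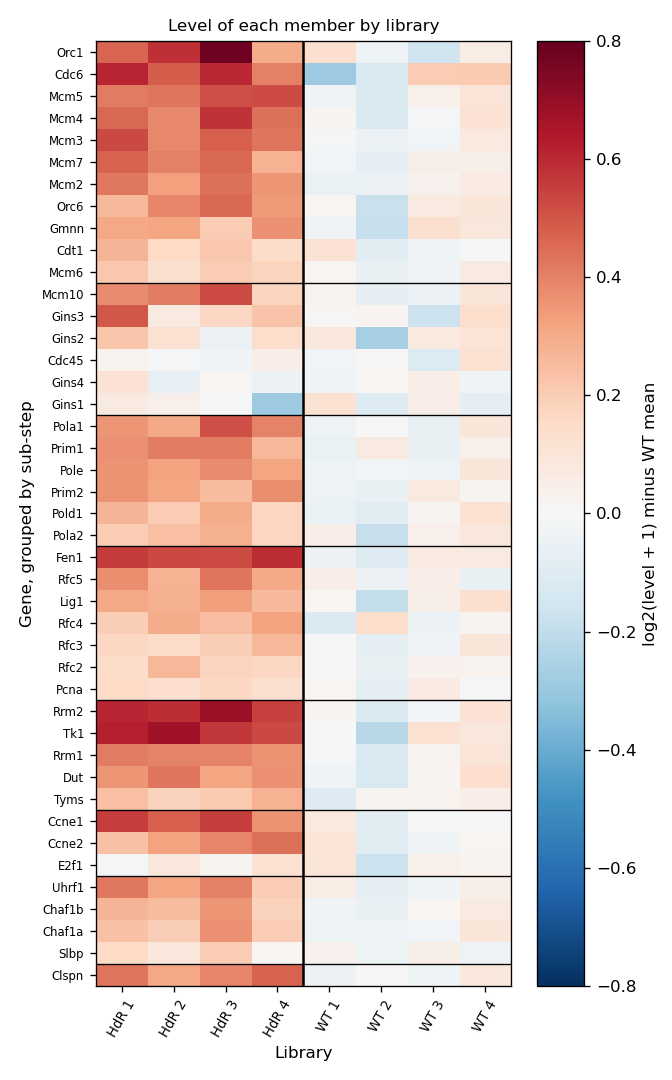
The colour gives each gene's log2(level + 1) in each library minus its WT mean, with HdR libraries left of WT libraries and genes in rows by sub-step. HdR columns are red in most rows, HdR 3 holds the highest value of 17 genes and WT 2 the lowest of 27, and the rows of Cdc45, Gins4 and E2f1 are pale.

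Of the 6 firing genes among the members only Mcm10 was called, and their median log2 fold change was 0.06. Outside the members, the firing-step genes Topbp1 and Donson were called higher, by log2 fold changes of 0.21 ± 0.044 and 0.32 ± 0.078. Ticrr, Recql4, Cdc7 and Dbf4 were not called, and Mtbp was called lower. Mcm10, which is needed to activate the assembled helicase (GRCm38 chromosome 2, 4989714 to 5012791, minus strand), had 34.7, 35.7, 38.6 and 30.2 aligned bases per Mb in the HdR libraries, against 27.2, 25.1, 25.7 and 28.5 in the WT libraries, a log2 fold change of 0.37 ± 0.069 (limma adjusted p = 0.000349). Cdc45 (GRCm38 chromosome 16, 18780447 to 18811987, minus strand) had 21.3, 20.7, 20.3 and 21.6 aligned bases per Mb in the HdR libraries, against 20.5, 20.99, 19.3 and 22.8 in the WT libraries. Its values overlapped throughout, and the 95% interval of the log2 difference was -0.13 to 0.14. That interval overlapped the one of Mcm6, 0.10 to 0.26, and ended below those of the other ring subunits. The difference between Cdc45 and the ring subunits was not itself tested. In the GINS subunit genes the groups also overlapped. Gins4 (GRCm38 chromosome 8, 23226616 to 23237659, minus strand), with the largest p of the sub-step, had 35.9, 31.6, 33.5 and 31.9 aligned bases per Mb in the HdR libraries, against 32.2, 33.4, 34.3 and 32.2 in the WT libraries, a difference of 0.01 ± 0.055 (limma adjusted p = 0.946).

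Gins1 was the 1 member with a negative log2 fold change, -0.05 ± 0.095, and had 9.85, 9.61, 9.22 and 7.44 aligned bases per Mb in the HdR libraries, against 10.3, 8.61, 9.71 and 8.82 in the WT libraries (limma adjusted p = 0.702). Gins2 had 20.3, 18.9, 16.7 and 19.2 aligned bases per Mb in the HdR libraries, against 18.4, 14.2, 18.3 and 18.7 in the WT libraries, and WT 2 was the low library (log2 difference 0.11 ± 0.087, limma adjusted p = 0.323). Gins3 had 7.60, 5.39, 5.83 and 6.12 aligned bases per Mb in the HdR libraries, against 5.12, 5.17, 4.39 and 5.72 in the WT libraries, with HdR 1 alone well above the rest (log2 difference 0.24 ± 0.109, limma adjusted p = 0.0806). Gins3 was called without HdR 2, with upper-quartile scaling and after thinning, and its adjusted p ran from 0.0375 to 0.267 over the alternatives. Gins1 and Gins3 had the lowest mean levels of the 43 members.

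Set against the ring within each library, Cdc45 and the GINS genes took a smaller part in HdR. The summed coverage of the 5 genes was 10.9%, 10.4%, 9.59% and 10.2% of that of Mcm2 to Mcm7 in the HdR libraries, against 13.3%, 13.3%, 13.0% and 12.7% in the WT libraries. The groups did not overlap, and the summed level of the 5 genes itself was 88.2 ± 4.46 in HdR and 85.8 ± 2.46 in WT (SD, n = 4 each). This quotient needs no scaling between libraries. It was formed after the values were seen, leaves out Mcm10, and restates the differences given above for these genes. It is a description without a test, and as it is not per length it says nothing of molar amounts. Gse1, on the other strand, covers 67.3% of the Gins2 exons and was called lower in HdR. The share of Gse1 reads in the quotient was not tested.

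**Figure D3:**
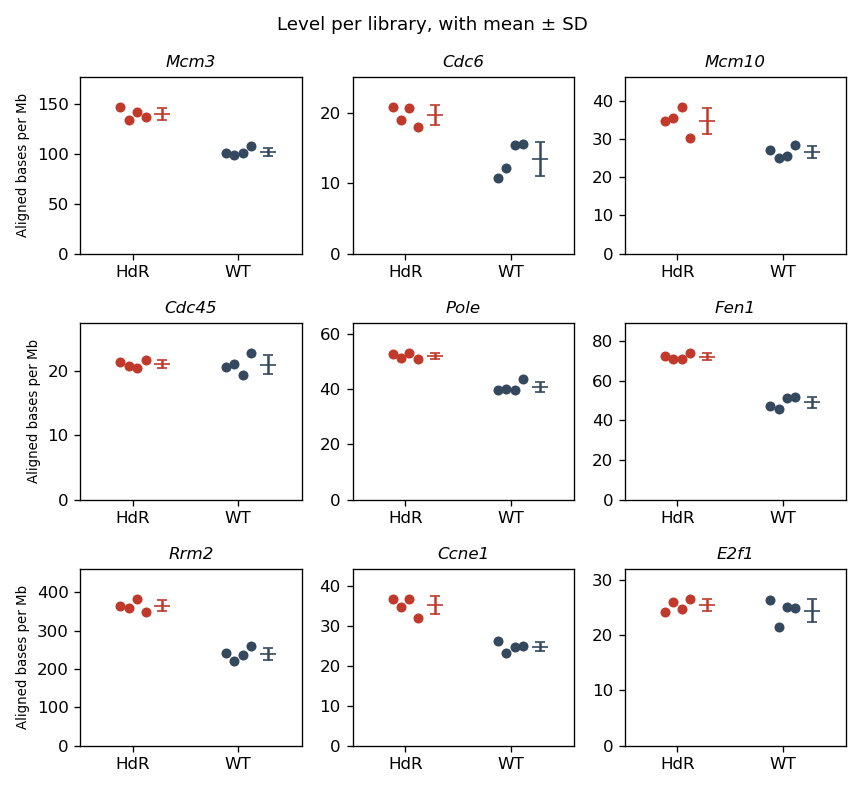
Levels in aligned bases per Mb are shown for 9 genes, each point 1 library, with the mean and SD of the group beside the points and axes from 0. HdR points lie above all WT points for Mcm3, Cdc6, Mcm10, Pole, Fen1, Rrm2 and Ccne1, and overlap them for Cdc45 and E2f1.

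All 6 primase and polymerase genes among the members were called higher, with a median log2 fold change of 0.33. Outside the members, the polymerase subunit genes Pold2, Pold3 and Pole3 were called higher, Pole2 and Pole4 were not called, and Pold4 was called lower. Pole, the catalytic subunit of polymerase epsilon, which copies the leading strand (GRCm38 chromosome 5, 110286306 to 110337474, plus strand), had 52.7, 51.4, 53.3 and 50.9 aligned bases per Mb in the HdR libraries, against 39.7, 40.2, 39.7 and 43.8 in the WT libraries. WT 4 stood above the other WT libraries and still below every HdR library, and the log2 fold change was 0.34 ± 0.048 (limma adjusted p = 2.42e-05). Pold1, the catalytic subunit of polymerase delta, which copies the lagging strand, had 49.8, 47.6, 50.8 and 46.5 aligned bases per Mb in the HdR libraries, against 39.5, 38.6, 41.8 and 44.8 in the WT libraries (log2 fold change 0.24 ± 0.054). Pola1, the catalytic subunit of polymerase alpha, had 42.2, 40.7, 47.3 and 43.5 aligned bases per Mb in the HdR libraries, against 31.8, 32.9, 31.4 and 35.1 in the WT libraries (log2 fold change 0.39 ± 0.057). Its partner Pola2 had the largest p of the group.

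Pola2 (GRCm38 chromosome 19, 5940542 to 5964202, minus strand) had 29.2, 30.04, 30.98 and 28.5 aligned bases per Mb in the HdR libraries, against 26.2, 22.1, 25.99 and 27.02 in the WT libraries, a log2 fold change of 0.22 ± 0.065 (limma adjusted p = 0.00956). After thinning its adjusted p was 0.0988, the highest of a range of 0.00341 to 0.0988 over the alternatives. The primase subunit genes Prim1 and Prim2, which make the RNA primers, were at 39.02 ± 1.90 in HdR and 30.1 ± 1.44 in WT and at 27.6 ± 1.04 in HdR and 21.8 ± 0.986 in WT (SD, n = 4 each), with log2 fold changes of 0.36 ± 0.055 and 0.32 ± 0.058.

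The clamp, its loader and the enzymes that join lagging-strand fragments were all called higher, 7 of 7, with a median log2 fold change of 0.27. Fen1, the flap endonuclease that trims those fragments (GRCm38 chromosome 19, 10199132 to 10204169, minus strand), stood out with 72.8, 71.1, 70.9 and 74.4 aligned bases per Mb in the HdR libraries, against 47.5, 45.7, 51.6 and 51.7 in the WT libraries. The lowest HdR level was well above the highest WT level, a log2 fold change of 0.55 ± 0.048 (limma adjusted p = 1.56e-07). An annotated gene on the other strand, Gm10143, covers 78.8% of the Fen1 exons, and since no strand setting is stated, reads of the 2 cannot be told apart. Lig1, the ligase that seals the fragments, was at 86.00 ± 1.98 in HdR and 70.1 ± 6.44 in WT (SD, n = 4 each), which is a log2 fold change of 0.30 ± 0.056.

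Pcna, the sliding clamp (GRCm38 chromosome 2, 132249162 to 132253314, minus strand), had 215, 211, 215 and 210.0 aligned bases per Mb in the HdR libraries, against 194, 183, 201 and 191 in the WT libraries. This was the smallest called rise among the members, 1.11-fold (log2 fold change 0.15 ± 0.036, limma adjusted p = 0.00329), in a narrow HdR group. Pcna and Tyms have annotated pseudogenes with which reads could be shared. Of the clamp loader genes, Rfc5 and Rfc4 differed by 0.34 ± 0.052 and 0.27 ± 0.066, and Rfc2 by 0.19 ± 0.045 on the log2 scale. Rfc3 (GRCm38 chromosome 5, 151642756 to 151651242, minus strand), with the largest p, had 20.6, 20.4, 21.1 and 22.2 aligned bases per Mb in the HdR libraries, against 18.3, 17.3, 17.9 and 19.7 in the WT libraries, groups that lay close (log2 fold change 0.19 ± 0.063, limma adjusted p = 0.0186). Its call was lost without WT 2 (0.0555), without HdR 4 (0.0518) and after thinning (0.223), in a range from 0.00694 to 0.223.

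Deoxynucleotide supply held the 2 members with the largest log2 fold changes, Rrm2 and Tk1, with all 5 genes called and a median log2 fold change of 0.39. Rrm2, the small subunit of ribonucleotide reductase, the enzyme that makes deoxynucleotides (GRCm38 chromosome 12, 24708241 to 24714146, plus strand), had 364, 360.0, 384 and 349 aligned bases per Mb in the HdR libraries, against 243, 219.9, 235 and 259 in the WT libraries. It had the largest difference of all 43 members, 1.52-fold, a log2 fold change of 0.61 ± 0.045 (limma adjusted p = 2.56e-08). Rrm1, the large subunit, had 336, 333, 333 and 324 aligned bases per Mb in the HdR libraries, against 251, 232, 258 and 271 in the WT libraries (log2 fold change 0.39 ± 0.042). Tk1, the thymidine salvage kinase (GRCm38 chromosome 11, 117815526 to 117826092, minus strand), had 58.5, 60.5, 56.2 and 54.7 aligned bases per Mb in the HdR libraries, against 37.8, 32.1, 41.1 and 40.2 in the WT libraries, a log2 fold change of 0.60 ± 0.067 (limma adjusted p = 2.82e-06).

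Dut, the enzyme that removes dUTP, was at 61.8 ± 2.10 in HdR and 47.8 ± 3.64 in WT (SD, n = 4 each), which is a log2 fold change of 0.36 ± 0.054. Tyms, thymidylate synthase (GRCm38 chromosome 5, 30058202 to 30073617, minus strand), had 43.1, 41.5, 42.3 and 44.4 aligned bases per Mb in the HdR libraries, against 33.9, 36.9, 37.1 and 37.9 in the WT libraries, the smallest rise of the group (log2 fold change 0.23 ± 0.051, limma adjusted p = 0.00162). The 9 members that passed the test against a fold of 1.2 were Mcm3, Mcm4, Mcm5, Mcm7, Fen1, Rrm1, Rrm2, Tk1 and Ccne1.

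At the entry into S phase the cyclin E genes rose and E2f1 was not called. Ccne1, which activates Cdk2 at the G1/S transition (GRCm38 chromosome 7, 38097984 to 38107534, minus strand), had 36.7, 34.7, 36.6 and 31.9 aligned bases per Mb in the HdR libraries, against 26.2, 23.2, 24.7 and 24.8 in the WT libraries, a log2 fold change of 0.48 ± 0.060 (limma adjusted p = 6.99e-06). Ccne2, the second cyclin E, had 21.5, 22.9, 24.1 and 24.95 aligned bases per Mb in the HdR libraries, against 19.6, 16.97, 17.7 and 18.3 in the WT libraries (log2 fold change 0.35 ± 0.067). The groups were separate in both cyclins. E2f1, an activating member of the E2F family (GRCm38 chromosome 2, 154559407 to 154569892, minus strand), had 24.2, 26.02, 24.7 and 26.6 aligned bases per Mb in the HdR libraries, against 26.2, 21.5, 25.1 and 24.8 in the WT libraries. These overlapped, with a log2 difference of 0.06 ± 0.066, a 95% interval of -0.08 to 0.20, and a limma adjusted p of 0.508.

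Of the genes for copying chromatin, 3 of 4 were called higher, with a median log2 fold change of 0.26. Uhrf1, which reads hemimethylated DNA behind the fork (GRCm38 chromosome 17, 56303321 to 56323486, plus strand), had 129, 119.9, 127 and 111 aligned bases per Mb in the HdR libraries, against 100.1, 91.3, 93.8 and 99.4 in the WT libraries, a log2 fold change of 0.34 ± 0.050 (limma adjusted p = 3.97e-05). HdR 4 was the lowest HdR library and lay above every WT library. Chaf1a, a subunit of the chaperone that places histones behind the fork, had 62.1, 60.4, 68.2 and 60.7 aligned bases per Mb in the HdR libraries, against 51.1, 51.5, 51.8 and 56.3 in the WT libraries. Its partner Chaf1b had 37.8, 37.3, 40.1 and 35.4 in the HdR libraries, against 30.5, 29.9, 31.4 and 32.7 in the WT libraries. The groups were separate in both, with log2 fold changes of 0.25 ± 0.050 and 0.27 ± 0.054.

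Slbp, which binds the ends of histone mRNAs (GRCm38 chromosome 5, 33634952 to 33652574, minus strand), had 48.7, 46.5, 50.3 and 43.98 aligned bases per Mb in the HdR libraries, against 44.6, 42.5, 45.01 and 42.2 in the WT libraries. HdR 4 lay below 2 of the WT libraries, and Slbp was not called (log2 difference 0.12 ± 0.051, limma adjusted p = 0.0762). Slbp was called with upper-quartile scaling, library totals, limma-voom and without HdR 4, in a range of adjusted p from 0.019 to 0.219. Clspn, the fork protein that passes the checkpoint signal to Chek1 (GRCm38 chromosome 4, 126556935 to 126593903, plus strand), was the 1 checkpoint gene and had 41.1, 37.7, 40.1 and 42.5 aligned bases per Mb in the HdR libraries, against 29.3, 30.3, 29.6 and 32.2 in the WT libraries, separate groups with a log2 fold change of 0.40 ± 0.054 (limma adjusted p = 1.76e-05).

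Partner genes were compared as ratios within each library, which do not depend on the scaling, for 7 pairs. Pole and Pold1 belong to separate polymerases and Ccne1 and Ccne2 are alternative cyclins, while the partners in the other pairs act in 1 complex. The Rrm2 to Rrm1 ratio was 1.08, 1.08, 1.15 and 1.08 in the HdR libraries and 0.966, 0.950, 0.913 and 0.953 in the WT libraries, a log2 difference of 0.22. The Pole to Pold1 ratio was 1.06, 1.08, 1.05 and 1.10 in HdR and 1.005, 1.04, 0.951 and 0.978 in WT, a log2 difference of 0.11. These 2 were the pairs without overlap, each with an exact two-sided permutation p of 0.0286, the smallest that 70 regroupings allow, and an adjusted p of 0.1 over the 7 pairs, which did not pass 0.05. After thinning the Pole to Pold1 difference was 0.037 (adjusted p = 0.56, exact permutation test).

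The other 5 pairs overlapped. Gmnn to Cdt1, the licensing inhibitor against its target, was 0.698, 0.759, 0.671 and 0.792 in HdR and 0.610, 0.631, 0.760 and 0.720 in WT (exact permutation p = 0.314, adjusted 0.44). Ccne2 to Ccne1 was 0.585, 0.659, 0.657 and 0.781 in HdR and 0.749, 0.730, 0.716 and 0.738 in WT, with a wider HdR spread (exact permutation p = 0.143, adjusted 0.25). Pola2 to Pola1 differed by -0.17 on the log2 scale (exact permutation p = 0.0857, adjusted 0.2), Prim2 to Prim1 by -0.04 (0.657 and 0.657) and Chaf1b to Chaf1a by 0.02 (0.429 and 0.5). After thinning Ccne2 to Ccne1 differed by -0.28, Chaf1b to Chaf1a by 0.069 and Prim2 to Prim1 by -0.0049, and the sign of Prim2 to Prim1 turned without HdR 3 (0.0066) or without WT 3 (0.011). Ccne2 to Ccne1 differed by -0.073 without HdR 1 and by -0.21 without HdR 4. A p above the threshold here does not show that the partners moved alike.

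**Figure D4:**
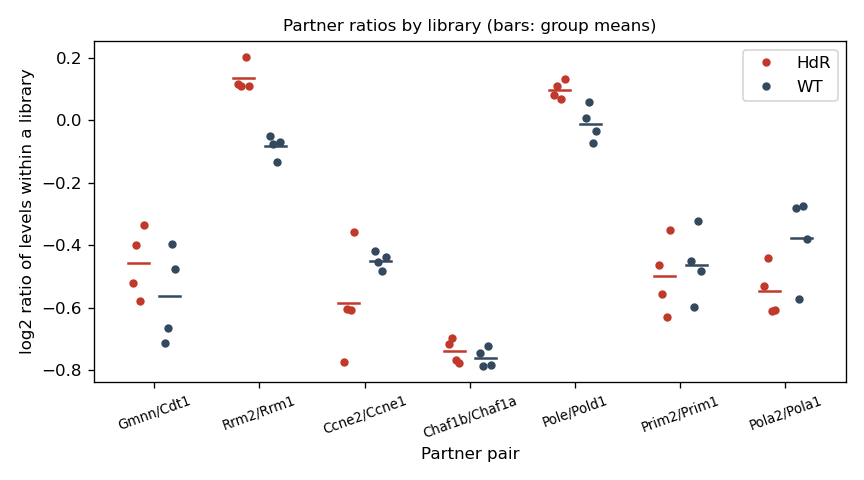
Each point is the log2 ratio of 2 partner genes in 1 library, HdR left of WT for each pair, with bars at the group means. The HdR points lie above the WT points for Rrm2/Rrm1 and Pole/Pold1 and overlap them for the other 5 pairs.

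Averaged over the members, every HdR library lay above every WT library, and WT 4 was the highest WT library. The mean over the 43 genes of log2 level minus the WT mean was 0.33, 0.29, 0.34 and 0.27 in the HdR libraries and -0.0015, -0.076, 0.010 and 0.067 in the WT libraries. WT 4 had the highest WT level in 26 of the 43 genes, and WT 2 the lowest level of all 8 libraries in 27. Together the 43 genes took 0.323%, 0.314%, 0.330% and 0.311% of all aligned bases in the HdR libraries, against 0.243%, 0.232%, 0.243% and 0.259% in the WT libraries. Without WT 4 the count called higher was again 36, and the median was 0.34.

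Beyond the members, 66 other replication genes were tested, and 29 were called higher (43.9%), 6 lower (9.09%) while 31 were not called. Their median log2 fold change was 0.14, and 5 exceeded 1.2-fold in the HdR libraries. The smallest p belonged to Umps and Cad, which make pyrimidines, the single-strand binding protein gene Rpa1, the topoisomerase gene Top2a, the alternative clamp loader gene Chtf18 and the S phase cyclin gene Ccna2. Cad had 284, 274, 296 and 258 aligned bases per Mb in the HdR libraries, against 164, 158, 168 and 194 in the WT libraries, a log2 fold change of 0.70 ± 0.061 (limma adjusted p = 2.21e-06), larger than that of any member. Umps was at 68.5 ± 4.15 in HdR and 45.2 ± 3.65 in WT and Rpa1 at 125 ± 1.90 in HdR and 92.3 ± 5.65 in WT (SD, n = 4 each), with log2 fold changes of 0.59 ± 0.059 and 0.43 ± 0.044. Top2a, Chtf18 and Ccna2 differed by 0.38 ± 0.045, 0.46 ± 0.064 and 0.29 ± 0.040.

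The 6 called lower were Rb1, E2f2, Mtbp, Pold4, Asf1a and Rrm2b. Rb1, the retinoblastoma protein that restrains E2F, had 24.99, 24.1, 24.00 and 23.1 aligned bases per Mb in the HdR libraries, against 36.4, 36.8, 28.3 and 34.5 in the WT libraries, without overlap (log2 fold change -0.48 ± 0.073, limma adjusted p = 5.45e-05). E2f2, another activating E2F, had 2.83, 4.19, 3.96 and 4.07 aligned bases per Mb in the HdR libraries, against 6.42, 6.56, 5.08 and 4.98 in the WT libraries (log2 fold change -0.51 ± 0.121, limma adjusted p = 0.00258). Mtbp, a partner of the origin-firing factor Ticrr, was at 25.8 ± 1.38 in HdR and 31.9 ± 3.01 in WT (SD, n = 4 each). The small polymerase delta subunit gene Pold4 and the histone chaperone gene Asf1a had log2 fold changes of -0.28 ± 0.074 and -0.22 ± 0.065. Rrm2b, the p53-inducible counterpart of Rrm2, had 9.69, 11.4, 12.3 and 11.96 aligned bases per Mb in the HdR libraries, against 11.6, 16.2, 13.1 and 13.8 in the WT libraries, overlapping groups (log2 fold change -0.25 ± 0.097, limma adjusted p = 0.0481). The Rrm2b call was lost in 12 of 19 alternatives (adjusted p 0.0186 to 0.177), and that of Asf1a after thinning (0.0619, in a range from 0.00465).

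**Figure D5:**
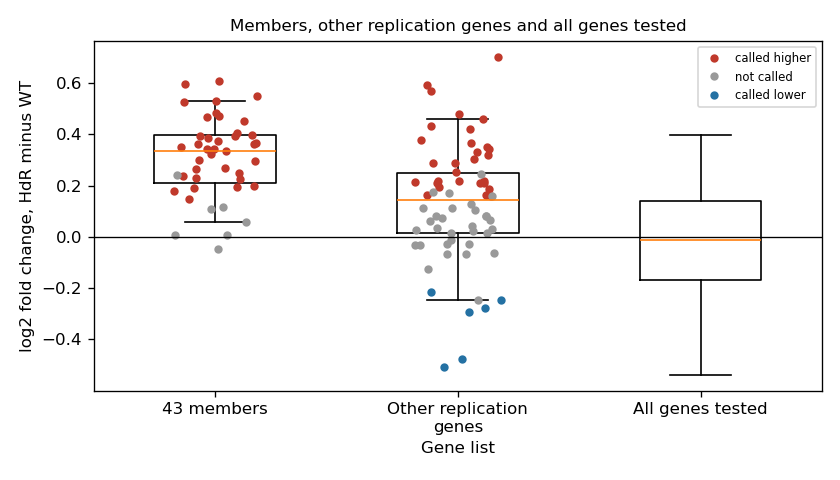
Log2 fold changes, HdR minus WT, are drawn as boxes (quartiles, median, whiskers at the 5th and 95th percentiles) for the 43 members, the 66 other replication genes and all genes tested, with a point for each gene of the first 2, red where called higher, blue where called lower and grey where not called. The medians are 0.34, 0.14 and -0.01.

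Several members share exons with genes on the other strand, beside Fen1. Gse1 covers 67.3% of the Gins2 exons and fell (log2 fold change -0.46 ± 0.050, limma adjusted p = 1.68e-06), and Ubxn6 covers 52.5% of those of Chaf1a and fell (-0.21 ± 0.055, limma adjusted p = 0.00472). The share of such reads in the Gins2 and Chaf1a values was not tested. Other overlaps of member exons were at most 17.4% of their length. Of those partners, Ints8, over 17.4% of the Ccne2 exons, was higher in HdR (0.13 ± 0.052, limma adjusted p = 0.0486), as was Ap4m1, over 7.25% of those of Mcm7 (0.25 ± 0.087, limma adjusted p = 0.0298). Zswim9, over 5.79% of those of Lig1, was lower (-0.26 ± 0.095, limma adjusted p = 0.0372).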

How the data were processed

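RNA was measured in 8 libraries, 4 HdR and 4 WT. The authors deposited 1 table of signal, whole-number coverage summed over each gene and not scaled for depth or length. The unit was inferred from the numbers themselves, whose commonest non-zero value is 302, 2 reads of 151 bases. The build is GRCm38, per the submitters' processing notes, and the aligner, counter, annotation and strand setting are not given in the sources used here. Per the labels' protocols, RNA came straight from the plates and libraries were made with a NEBNext Ultra II kit.

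Libraries were scaled by trimmed-mean (TMM) factors, 0.976 to 1.02, and log2(level + 1) was fitted with limma 3.58.1 in R 4.3.3 (mean trend, robust variance, statmod 1.5.0), genotype being the only factor, with Benjamini-Hochberg adjustment over all genes averaging 1 or more. The calculation was checked on simulated data. Partner ratios used an exact permutation test in scipy 1.17.1. Since coverage is no count of molecules, no counting interval or detection floor is given. Correlations across genes were 0.9952 to 0.9966 within HdR, 0.9944 to 0.9967 within WT and 0.9816 to 0.9889 between them. Promoter sequences are from RefSeq (GRCm38.p6) and positions and exon lengths from GENCODE vM21.

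The members, the other lists and the partner pairs were chosen with earlier results of these data known. Named genes were the smallest and largest p of each sub-step, every member not called, all pairs, and, of the other replication genes, the 6 called genes with the smallest p and those called lower; the remaining members are given because all 43 are accounted for. Apart from Pold4 and Mtbp, the origin recognition complex, firing-step and polymerase subunit genes outside the members were named after their values were seen. Where a gene had several RefSeq starts, the one nearest the GENCODE start is printed. Alternatives covered scaling, filter, pseudocount, limma-voom, a test against a fold of 1.2, a replicate block, thinning and leaving out libraries.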

Additional observations from a re-analysis of the deposited data

Results flagged for a closer look

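In 124 groups of 4 libraries (43 members, 12 other replication genes and 7 partner ratios in each genotype), 6 had 1 library far from the other 3, where chance marks about 1 in 20. Gins2 was at 14.2 aligned bases per Mb in WT 2, against 18.3 to 18.7 in the other WT libraries. Pole was at 43.8 in WT 4, against 39.7 to 40.2 in the other WT libraries, and Chaf1a at 56.3 in WT 4, against 51.1 to 51.8. Pold4 was at 21.7 in HdR 2, against 18.4 to 18.9 in the other HdR libraries, and E2f2 at 2.83 in HdR 1, against 3.96 to 4.19. The Rrm2 to Rrm1 ratio was 1.15 in HdR 3, against 1.08 in each of the other HdR libraries.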

How the results depend on the processing

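Under 20 alternatives the count of members called lower stayed at 0, and the count called higher lay between 35 and 38 in all but 1. Against a fold of 1.2 it was 9, with 344 higher and 543 lower over all genes, and 5 higher and 0 lower among the other replication genes. Leaving out 1 library at a time gave 35 to 37 members called higher, 24 to 30 other replication genes higher and 5 to 7 lower. With the replicate number as a block, 36 members were called higher and 0 lower, and 2240 genes higher and 2524 lower overall. Same-numbered libraries deviated from their group means with correlations of 0.028, -0.068, -0.22 and 0.020. Differently numbered libraries gave -0.24 to 0.25, so these correlations cannot decide whether the numbers pair the libraries. The clamp median was 0.31 with upper-quartile scaling, 0.23 with a pseudocount of 5, which shrinks log differences, and 0.23 to 0.29 with 1 library left out. The entry median was 0.28 after thinning, and the firing median 0.016 to 0.097 with 1 library left out, and the cause of these shifts was not tested. Without 1 library a permutation test of a ratio cannot go below 0.0571, so those ratios have no test. Their log2 differences ran from 0.054 to 0.16 for Gmnn/Cdt1, 0.19 to 0.23 for Rrm2/Rrm1, -0.21 to -0.073 for Ccne2/Ccne1, 0.0058 to 0.033 for Chaf1b/Chaf1a, 0.087 to 0.13 for Pole/Pold1, -0.086 to 0.011 for Prim2/Prim1 and -0.24 to -0.14 for Pola2/Pola1. Of 817 repeats of single members apart from the 1.2-fold test, 806 kept their side of the threshold. Some members that were never called changed sign, with log2 differences of -0.063 to 0.049 for Cdc45, -0.089 to 0.031 for Gins1, -0.031 to 0.086 for Gins4 and -0.00078 to 0.15 for E2f1. With 50 bases after and 100 before the start, 29.4% of members and 2.69% of tested genes held an E2F motif. Thinning ended the calls of Pola2 and Rfc3.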
